A study of Caenorhabditis elegans with 3 samples.

Results

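The 10283 peaks described here are weak calls inside introns from a chromatin immunoprecipitation experiment (ChIP-seq) on UNC-55 in Caenorhabditis elegans. They are rows of the relaxed peak list that the authors called on all replicates together, which holds 30000 rows. A row was taken when it overlapped no row of the authors' optimal list by even 1 bp, and when its summit lay inside a protein-coding gene but in no annotated exon. The first condition left 23511 rows, of which 10283 had an intronic summit, 8324 an intergenic one and 4904 an exonic one. Counting exons of protein-coding genes alone would have given 10529 peaks. Relaxed lists are called loosely and hold background on purpose, because the irreproducible discovery rate (IDR) method needs it to compare how replicates rank their peaks. The optimal list holds the rows that passed the authors' IDR threshold, so the members were selected on measured signal and reproducibility, and their weakness is not a finding.

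The 3 samples are biological replicates 1, 2 and 3 of 1 group, with no control sample in the series. Each came from whole L2 larvae of mixed sex of strain NC1639, which carries the integrated transgene wdIs49 on chromosome III, in which pttr39 drives UNC-55a fused to GFP, beside dpy-20+ as the marker gene. The ttr-39 promoter is active in GABA motor neurons, so the tagged protein was not made under control of its own promoter. In whole larvae, binding in few cells and weaker binding in many cells cannot be told apart. The labels name eGFP-unc-55 as the target in all replicates, while a note on replicate 3 describes a C-terminal GFP-FLAG tag, and the antibody field gives unc-55 alone. Replicates 1 and 2 have a stated fragment size of 150 to 350 bp, whereas replicate 3 is labelled with microtip sonication. The labelled source of the worms is the CGC, the worm stock centre, for replicates 1 and 2, and the submitting laboratory for replicate 3. No read counts were used, so depth is unknown.

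UNC-55 is a nuclear receptor related to vertebrate COUP-TF, proteins that bind DNA through zinc fingers and often recognise the core AGGTCA. It acts mainly as a repressor, and in ventral D GABA motor neurons it keeps synapses from being remodelled. Introns of C. elegans are mostly short, and the long ones, often the first of a gene, are known to hold enhancers and alternative promoters. A weak peak in an intron can be a low-occupancy site, a site used in few cells, or noise of the assay.

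The sequences at 6 members are shown because these were the strongest that recurred in every replicate, leaving aside a chromosome from which no sequence is printed. They are followed by the strongest member inside pde-4, a gene described as regulated by UNC-55. Each runs from 50 bases before to 50 bases after the summit, on the plus strand of RefSeq assembly WBcel235 (ce11). Capitals would mark AGGTCA or its complement, which none of them holds. Capitals also mark any of 10 hexamers with the highest ratio of summit to flank at optimal intronic peaks. The highest was CGCAGA, next came AGACGC and after it GACGCA, with ACGCAG as a shifted form of these. The set went on with CGTCTC, then AGAGAG and its shifted form GAGAGA, and also held CCGTCC as well as GAGTGC and finally ACTCTC. Each was searched on both strands, several overlap one another, and the set was chosen after the data had been seen.
spsb-1 chrII:15208328-15208428: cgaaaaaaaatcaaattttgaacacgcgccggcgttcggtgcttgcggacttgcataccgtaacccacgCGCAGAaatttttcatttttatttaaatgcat
C46C11.3 chrX:4627356-4627456: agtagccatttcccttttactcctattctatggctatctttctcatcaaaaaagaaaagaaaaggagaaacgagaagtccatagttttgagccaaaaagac
orc-4 chrIII:10646237-10646337: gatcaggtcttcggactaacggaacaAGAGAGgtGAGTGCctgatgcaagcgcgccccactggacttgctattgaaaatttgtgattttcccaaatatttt
rgs-11 chrX:14965495-14965595: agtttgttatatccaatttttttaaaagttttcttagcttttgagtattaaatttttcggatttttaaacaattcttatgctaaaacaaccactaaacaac
acl-12 chrX:7442196-7442296: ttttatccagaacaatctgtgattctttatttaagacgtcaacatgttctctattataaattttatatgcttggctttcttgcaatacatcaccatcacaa
mpz-1 chrII:10755608-10755708: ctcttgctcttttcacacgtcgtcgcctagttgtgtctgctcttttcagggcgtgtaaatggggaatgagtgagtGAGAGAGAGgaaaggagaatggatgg
pde-4 chrII:7639750-7639850: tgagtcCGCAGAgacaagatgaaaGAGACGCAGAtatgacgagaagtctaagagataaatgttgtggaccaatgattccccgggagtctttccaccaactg
Of the 6 strong members, 3 held at least 1 of the hexamers, namely those in spsb-1, orc-4 and mpz-1. Among the 10 sequences chosen by the same rule 4 did, and among all members found in every replicate 31.5% did. The pde-4 member held 6 matches, some of them overlapping, the most of those shown. The window in orc-4 runs past its 75 bp exon-free stretch into exons.

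The 6 members came from genes of varied function and sat at similar pooled signal, between 45.2 and 45.7. The signal is a value written by the authors' peak caller and is used here only within a list. The spsb-1 member, in the first intron of a gene for a SPRY and SOCS box protein, ranked 22103, 7004 and 2552 in replicates 1, 2 and 3. Replicate 3 thus placed it far higher than replicate 1 did. The member in orc-4, a subunit of the origin recognition complex, ranked 7134, 5625 and 14324. It lay 57 bp from an annotated transcript start, the closest of the 6. The member in rgs-11, named for regulators of G protein signalling, ranked 6938, 5697 and 11487. In acl-12, an acyltransferase-like gene, the ranks were 18387, 4626 and 24896. The C46C11.3 member ranked 6693, 7106 and 9156, and was thus the most even of those given here. Ranks among the 10 strongest recurrent members ran from 2552 to 24896 over the 3 lists. The order of these members therefore differed widely between replicates.

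The members filled the lower part of the pooled list. Their signal ran from 7.94 to 45.7, with a median of 13.5, and their ranks from 6003 to 29999. Most of them, 10276, were exactly 336 bp wide with the summit at the centre, a width set in the calling. The deposited q-value was under 0.05 for 1825 members (17.7%), a share not counted over all rows without optimal overlap. For weak intronic peaks of the lists of replicates 1, 2 and 3 it was 26.5%, 30.1% and 61.4%. At the upper edge, the strongest members were in afd-1, which encodes afadin (signal 45.6728), spsb-1 (45.6714) and C08G9.1 (45.6522). Just outside, the weakest optimal intronic peaks were in vhp-1, a phosphatase of MAP kinases (45.7627), clh-4, a chloride channel (45.7864), and C35B1.2 (45.8223). All 6 had the highest −log10 q of the pooled list, 4.12, as did 174 members in all. Of the members, 48.3% had another within 1000 bp, the median distance to the nearest was 1051 bp, and 1393 overlapped another. These spacings were not counted for other rows, so they are not set against a background.

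Most members were found again in 1 replicate or in none, and so were most of all rows without optimal overlap. A member counted as recurring when 1 peak of a replicate's whole relaxed list covered at least 50% of its length. In replicate 1, 54.7% of members recurred, beside 57.1% of all rows without optimal overlap. The shares were 44.7% in replicate 2, against 46.6%, and 27.5% in replicate 3, against 29.8%. The mean was 42.3% ± 13.7 (SD, n = 3), and the order of the replicates was the same for members and for all rows. Replicate 3 has the shortest list, with 25262 rows against 30000 in the others. All 3 replicates held 856 members (8.32%, against 9.67% of all rows without optimal overlap). In 2 replicates were 2849 (27.7%, against 29.6%), in 1 were 4782 (46.5%, against 45.3%) and in none 1796 (17.5%, against 15.4%). Of the members found in a single replicate, 2482 were in replicate 1, 1648 in replicate 2 and 652 in replicate 3. Optimal intronic peaks, which were chosen for reproducibility, recurred at 93.4% ± 3.08 (SD, n = 3). Since the pooled list was called on the same reads, none of these shares is independent of the replicates.

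Recurrence was set against weak peaks elsewhere, within each replicate. Members recurred less often than intergenic peaks among the rows without optimal overlap, and the differences, intronic minus intergenic, were -3.92, -5.53 and -5.12 percentage points in replicates 1, 2 and 3. Their mean was -4.86 ± 0.833 points (SD, n = 3; exact sign-flip permutation p = 0.25, two-sided). With 3 replicates 0.25 is the smallest p this test can give, so it cannot reach 0.05. Intergenic peaks had a higher median signal, 14.7 against 13.5. Compared among peaks of like signal, a comparison chosen after seeing the data, the difference was -1.78 ± 1.17 points (n = 3, exact p = 0.25). Against exonic peaks the differences were -4.80, 0.294 and -2.19 points (n = 3, exact p = 0.5), which did not share a sign.

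Stronger members recurred more often. When the members were split by pooled signal into 5 groups of equal size, from group 1 (weakest) to group 5 (strongest), mean recurrence was 25.5% ± 7.95, 30.7% ± 12.2, 36.9% ± 14.4, 48.4% ± 16.9 and 70.0% ± 17.3 (SD, n = 3). Group 1 held 9 members found in every replicate and 722 found in none. Group 5 held 647 and 19. Pooled signal is itself made from the replicates' reads, so this order is a description and carries no test. Of the members that recurred, 149, 183 and 249 were covered by one of the 5993 strongest rows of replicates 1, 2 and 3. These were 2.65%, 3.98% and 8.80% of the members covered there. A single member was among those strongest rows in all 3 replicates, and 44 were in 2. The rule itself keeps such counts low, since members overlap no optimal row and their pooled ranks begin at 6003. The same share over all rows without optimal overlap was not counted.

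**Figure D1:**
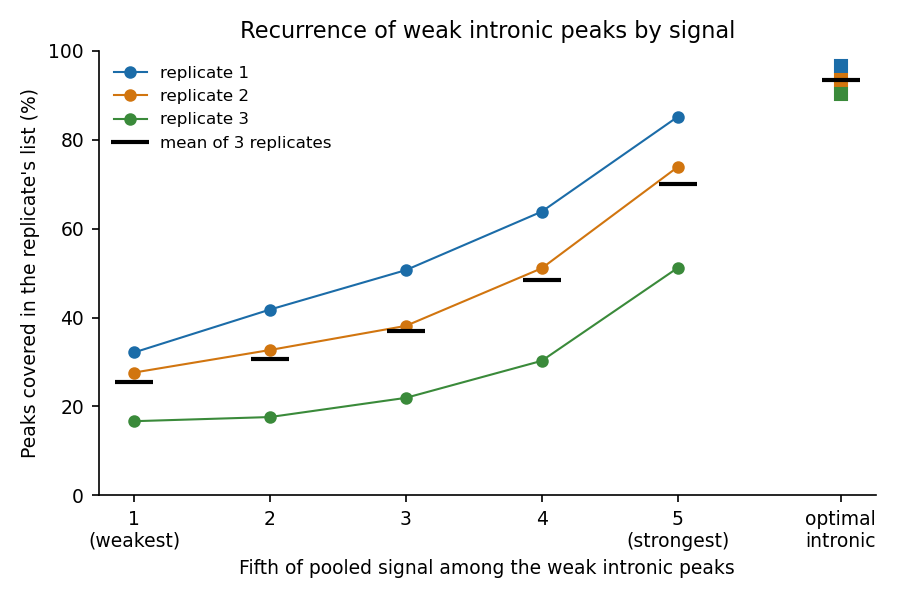
Share of weak intronic peaks (%) covered over at least 50% of their length by a peak of each replicate's list, in 5 equal groups by pooled signal; circles are replicates, black bars their mean, squares the optimal intronic peaks. The mean goes from 25.5% in the weakest group to 70.0% in the strongest, below the 93.4% of optimal intronic peaks, and replicate 3 is lowest throughout.

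Introns held a larger share of the weak rows than of the genome. The exon-free bases of protein-coding genes made up 32.5% of the nuclear genome, and members 43.7% of the rows without optimal overlap. In the replicates' own lists, the rows that overlapped no optimal peak had an intronic summit in 39.5%, 39.98% and 36.7% of cases (38.7% ± 1.77, SD, n = 3), which is 9254, 9366 and 6899 peaks. These own peaks, called without the other replicates, are the set on which the tests below were made. A single gene body held the summit of 98.3% of members, and 58.3% of members were free of exons over their whole width.

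Within genes, the share of members in a first intron or near a transcript start was closer to that of intron sequence than to that of optimal intronic peaks. The first intron held 23.8% of members, 23.1% of all exon-free bases and 36.6% of optimal intronic summits. Weak intronic peaks of the replicates' own lists had a first-intron share of 24.6%, 25.5% and 25.2%, above the bases by a mean of 1.95 ± 0.456 points (SD, n = 3; exact sign-flip permutation p = 0.25, the smallest possible). Away from optimal peaks by more than 1000 bp, that difference was 0.243 points (n = 3, exact p = 0.5). A transcript start was within 500 bp of 20.1% of members, 20.8% of bases and 31.9% of optimal intronic summits. The exon-free stretch around the summit had a median length of 982 bp for members, 795 bp for bases and 1464 bp for optimal peaks. Members lay closer to optimal peaks than intron bases did, with a median distance to the nearest optimal summit of 3712 bp against 6800 bp. In the replicates' own weak peaks that median was 3883, 3801.5 and 4059 bp. Within 1000 bp of an optimal summit lay 12.4% of members and 9.59% of bases. By the rule no member overlaps an optimal peak, whereas the bases include those inside such peaks, so the sets are unlike in these distances.

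Along the chromosomes, density ran from 2.26 members per 10 kb of exon-free gene body on V to 3.86 on III. Chromosomes I and II had 3.64 and 3.30, and X and IV 2.98 and 2.96. The X chromosome held 15.4% of members and 16.3% of exon-free bases. Among the replicates' own weak intronic peaks the share on X was 17.0%, 16.8% and 17.1%, above the bases by 0.715 ± 0.182 points (SD, n = 3; exact permutation p = 0.25). The direction on X thus differed between the pooled list and the replicates' lists. The outer 30% at each end of a chromosome held 68.3% of members and 65.2% of bases, against 49.6% of optimal intronic summits. The replicates' own weak peaks had 66.5%, 64.2% and 62.98% there, on either side of the bases.

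The sequence at the summits was close to that of introns at large. GC content within 50 bp was 32.2% at members, 32.95% over intron bases and 42.0% at optimal intronic peaks. Among the replicates' own weak peaks it was 33.3%, 32.5% and 33.3%. The differences from flanks 300 bp away, summit minus flank, were -1.86, -2.53 and -1.90 points (mean -2.10 ± 0.378, n = 3, exact permutation p = 0.25). The summits are intronic by the rule, while the flanks can reach into exons. Among peaks whose flanks were also free of exons, a restriction made after seeing the data, the sign turned and the summit was higher by 0.498 ± 0.384 points (n = 3, exact p = 0.25). Summits in soft-masked sequence, written in lower case in the RefSeq assembly, made up 55.8% of members, 51.7% of bases and 23.6% of optimal intronic peaks. The masked share of the replicates' own weak peaks was 50.6% ± 1.59 (SD, n = 3), close to that of the bases.

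AGGTCA was not more frequent at the summits. It lay within 50 bp of 185 member summits (1.80%), in 2.32% of equal windows around intron bases and at 1.34% of optimal intronic summits. For the replicates' own weak peaks, the summit share was 2.30%, 2.07% and 1.94%, and the flank share 2.50%, 2.25% and 2.48%. The difference was -0.306 ± 0.1997 points (SD, n = 3, exact permutation p = 0.25), and -0.714 ± 0.426 with exon-free flanks. The search covered the 6 letters on both strands alone, so other forms of a receptor's site were not examined.

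The 10 hexamers of the strong intronic peaks, printed with the sequences above, were more frequent at the stronger members. At least 1 of them lay within 50 bp of 51.8% of optimal intronic summits, from which they were chosen, and in 13.6% of 267481 windows of the same length tiled over all introns. Among members the share was 17.0% at the summit and 16.9% in the flanks. For the 3826 members whose flanks were also free of exons, it was 20.2% at the summit and 15.3% in the flanks. Other rows without optimal overlap, not matched for signal, had higher summit shares. Intergenic ones had 22.6% at the summit and 16.5% in the flanks, and exonic ones 24.8% and 18.3%. From signal group 1 to 5 the share among members was 12.4%, 12.9%, 14.05%, 18.6% and 26.7% at the summit. In their flanks it stayed between 15.8% and 17.8%. Members in 0, 1, 2 and 3 replicates had shares of 11.5%, 14.5%, 20.1% and 31.5%. The weakest group was thus near intron sequence in general, and the members found in every replicate lay between that and the optimal peaks. The replicates' own weak peaks had a share of 17.9% ± 0.307 at the summit and 17.2% ± 0.448 in the flanks (SD, n = 3).

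Other properties changed along the same order of signal. From group 1 to 5, GC content at the summit was 31.1%, 31.3%, 31.3%, 32.3% and 35.1%. The share of summits in masked sequence was 61.9% in the weakest group and 42.1% in the strongest, and the share in a first intron 21.2% and 27.8%. The outer chromosome parts held 74.8% of the weakest and 56.9% of the strongest group. Sorted by recurrence instead, members in no replicate had 30.2% GC and 65.2% masked summits, and members in all 3 had 37.1% and 40.4%. Masked sequence, base composition and signal moved together, and their part in recurrence was not tested.

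**Figure D2:**
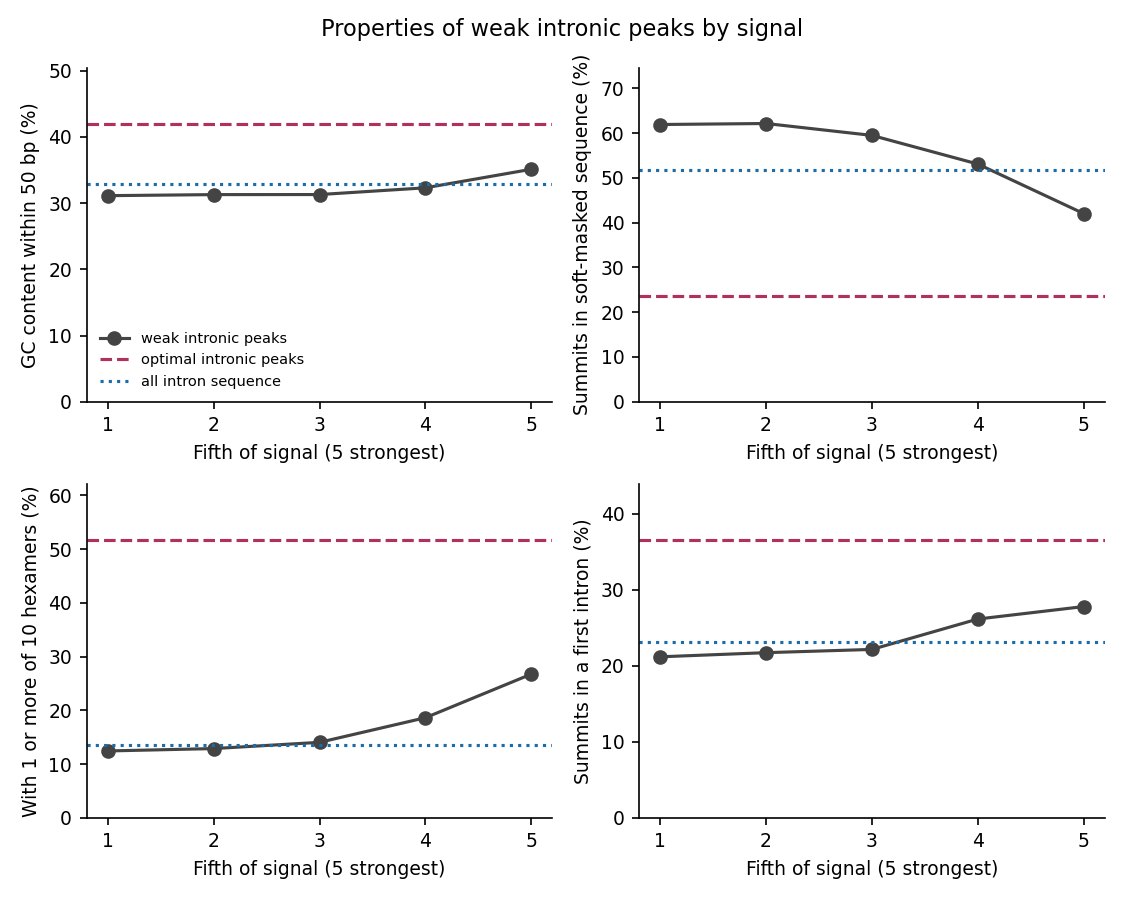
Properties of weak intronic peaks in 5 equal groups by pooled signal: GC content within 50 bp of the summit, summits in soft-masked sequence, summits with 1 or more of 10 hexamers, and summits in a first intron, all in percent. Dashed lines give the optimal intronic peaks and dotted lines all intron sequence; in each panel the strongest group is nearer to the optimal peaks than the weakest group is.

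The members were scattered over many genes. At least 1 lay in 3808 of 19973 protein-coding genes, or 19.1%, which is also the background for the gene lists below. Of these genes 1800 held exactly 1 member and 138 held 10 or more. The density was 3.15 members per 10 kb of exon-free gene body over all genes, and it went up with the length of that body, from 1.59 in genes under 1 kb to 4.89 in genes of 20 kb or more. Of the 910 genes with an optimal intronic peak, 660 (72.5%) also held a member. These genes were not matched for length. Over all genes, the share with a member went from 5.88% under 1 kb to 97.7% at 20 kb or more.

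The genes with most members were long ones, several of them with roles at synapses or junctions. The cadherin gene hmr-1 held 36, and the replicates' own lists gave 27, 31 and 17 weak intronic peaks there. The presynaptic calcium channel gene unc-2 held 31 (33, 23 and 20 own peaks), and F54G2.1 held 30 (22, 28 and 15). Afadin, encoded by afd-1, is a junction scaffold, and its gene held 30 members (24, 19 and 12). The gene mpz-1 of a multi-PDZ scaffold and the potassium channel gene unc-103 held 28 each. Counts of 27 were found in cox-6B, par-1 and unc-13, of which par-1 encodes a polarity kinase and unc-13 the factor that primes synaptic vesicles. In cox-6B, 21 of the 27 also lay in another gene overlapping it, so they cannot be assigned to either. The catalytic subunit gene of protein kinase A, kin-1, held 26 (23, 31 and 17 own peaks). Replicate 3 had fewer own peaks than replicate 1 in each of the 10 genes. Of the members in these genes, between 1 (mpz-1 and cox-6B) and 6 (kin-1) recurred in every replicate.

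**Figure D3:**
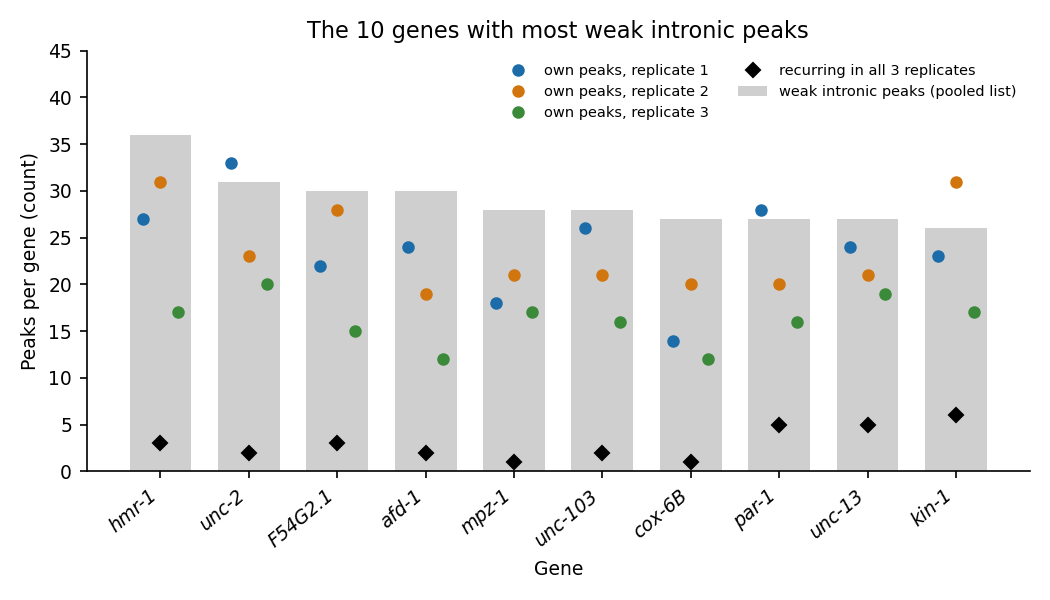
Number of weak intronic peaks per gene in the 10 genes with most: grey bars, pooled list; circles, weak intronic peaks of each replicate's own list; diamonds, peaks recurring in all 3 replicates. Counts in the pooled list run from 36 in hmr-1 to 26 in kin-1, and at most 6 per gene recur throughout.

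Per length of exon-free body, other genes led. Among the 474 genes with 10 kb or more, H10D18.5 had 13.6 members per 10 kb (21 members, 1 of them shared with another gene), and the globin gene glb-29 had 12.7 (17 members). The gene rimb-1 of a RIM-binding protein at active zones had 12.1, the folliculin gene flcn-1 had 11.6, and DH11.5 had 11.5. The median of these 474 genes was 4.22. Own weak peaks in H10D18.5 numbered 11, 14 and 9 in replicates 1, 2 and 3, and 2 of its members recurred in all of them. In rimb-1 there were 13, 12 and 6 own peaks, and 3 members recurred throughout.

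Densities differed between gene lists, and lists of neuronal genes lay on both sides of the density of all genes. The densest were pan-neuronal genes and genes of cAMP and G protein signalling, and no list was tested. Pan-neuronal genes, which serve vesicle release and peptide processing, held 110 members in 23 of 24 genes, or 8.88 per 10 kb against 3.15. By own peaks of the replicates this list had 2.42, 2.31 and 2.48 times the density of all genes (2.41 ± 0.0869, SD, n = 3). The highest counts were in unc-13 (27), the tomosyn gene tom-1 (9) and ida-1 (8), whose product sits on dense core vesicles. Of the 8 members in ida-1, 4 recurred in every replicate. Genes of cAMP and G protein signalling held 134 members in 18 of 23 genes (8.03 per 10 kb; own ratio 2.45 ± 0.195, n = 3), led by kin-1 (26) and the phosphodiesterase genes pde-3 (25) and pde-4 (18). The share of members in all 3 replicates was 16.4% for pan-neuronal and 14.9% for signalling genes, against 8.25% of all pairs of a gene and a member. Some lists of lower density had like shares, with 16% for twk channels. Intestine genes had 14.3% (1 of 7 members) and basement membrane genes 13.04% (3 of 23). Others were lower, among them potassium channels (7.19%), neurotransmitter receptors (6.78%), body wall muscle (5.71%) and chemoreceptor genes (3.85%). Epidermis and germline genes had 0%.

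Other lists of neurons and wiring followed. Axon guidance genes held 149 members in 16 of 23 genes (6.71 per 10 kb; own ratio 2.12 ± 0.125, n = 3), with ptp-3, a LAR-type receptor phosphatase, at 25 and the netrin receptor gene unc-5 at 14. The calcium channel list held 83 in 10 of 11 genes (6.43 per 10 kb). Among these genes were unc-2 (31), the T-type channel gene cca-1 (15) and unc-79 (8), which encodes no calcium channel itself. Hox genes and cofactors held 28 in 6 of 12 genes (6.23 per 10 kb), led by the Meis gene unc-62 (10) and the Hox genes mab-5 (8) and lin-39 (6). Potassium channel genes held 139 in 17 of 22 (5.50 per 10 kb), led by unc-103 (28) and by kcnl-2 (21) and kcnl-1 (14), both of the small-conductance family. Innexin genes, which form gap junctions, held 40 (4.21 per 10 kb) with unc-7 (13), inx-1 (10) and unc-9 (8) in front. Cell adhesion genes held 92 (3.66 per 10 kb), 36 of them in hmr-1, 13 in the L1 family gene sax-7 and 7 in the neurexin gene nrx-1. Neurotransmitter receptor genes held 59 (3.49 per 10 kb), led by the GABA receptor gene unc-49 (8), the muscarinic receptor gene gar-3 (7) and the GABA-B gene gbb-2 (6), and twk potassium channels held 50 (3.09 per 10 kb), led by twk-43 (7), twk-49 (7) and twk-13 (6).

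Long genes are denser in members, and many of these lists hold long genes. Set against genes of the same class of exon-free length, a comparison chosen after seeing the data, pan-neuronal genes had 2.46 times the members of that class, the signalling list 2.00 times, axon guidance 1.56 times and calcium channels 1.48 times. The ratio was 1.27 for potassium channels, 1.02 for neurotransmitter receptors and 0.914 for cell adhesion. Optimal intronic peaks were also denser in pan-neuronal genes (1.86 per 10 kb) than in all genes (0.411), and whether closeness to these peaks bears on the members was not tested.

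Lists of muscle, intestine, epidermis, germline and large gene families lay below the density of all genes in the pooled list. Body wall muscle genes held 35 members in 11 of 30 genes (2.18 per 10 kb; own ratio 0.785 ± 0.0389, n = 3), 10 of them in the zyxin gene zyx-1, 5 in the dystrophin gene dys-1 and 4 in pat-4, the integrin-linked kinase. Intestine genes held 7 (2.62 per 10 kb), in erm-1 (5) and the GATA factor gene elt-7 (2). Basement membrane genes held 23 (2.43 per 10 kb), led by cle-1 (7), him-4 (6) and agr-1 (3). Epidermis genes held 9 (1.78 per 10 kb), led by mlt-10 (3), ajm-1 (2) and elt-1 (2), and germline genes held 3, of which 2 were in mex-3 and 1 in pie-1. Genes of the nhr family, to which UNC-55 is related, held 113 (2.36 per 10 kb), led by nhr-27 (15), nhr-1 (10) and nhr-40 (8), and homeobox genes named ceh held 26 (1.97 per 10 kb), led by ceh-100 (6), ceh-18 (5) and ceh-91 (3). The own ratios did not all lie below 1: germline genes had 0.144, 0.426 and 1.35, and basement membrane genes 1.05, 0.776 and 1.00, in replicates 1, 2 and 3. Genes related to Patched held 21 (1.92 per 10 kb), led by ncr-1 (6), ptr-5 (4) and ptc-1 (3).

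Among families of many small genes, chemoreceptor, lectin and collagen genes had the lowest densities in the pooled list. Chemoreceptor genes held 52 members in 39 of 1285 genes (0.520 per 10 kb; own ratio 0.270 ± 0.0215, n = 3), with 3 each in srd-32, sre-45 and srg-64. C-type lectin genes held 11 (0.501 per 10 kb), with 2 each in clec-261 and clec-78 and 1 in clec-145. Cuticle collagen genes held 4 (0.6996 per 10 kb), among them 1 each in col-103, col-46 and col-72. Ribosomal protein genes, whose introns are short, held 4 (2.64 per 10 kb), among them 1 each in rpl-14, rps-20 and rps-28. Own ratios of the ribosomal list were 1.63, 1.38 and 0.625, on either side of 1. Against genes of like exon-free length, chemoreceptor genes stayed low at 0.237 times and ribosomal protein genes were at 1.66 times, the latter on 4 members.

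**Figure D4:**
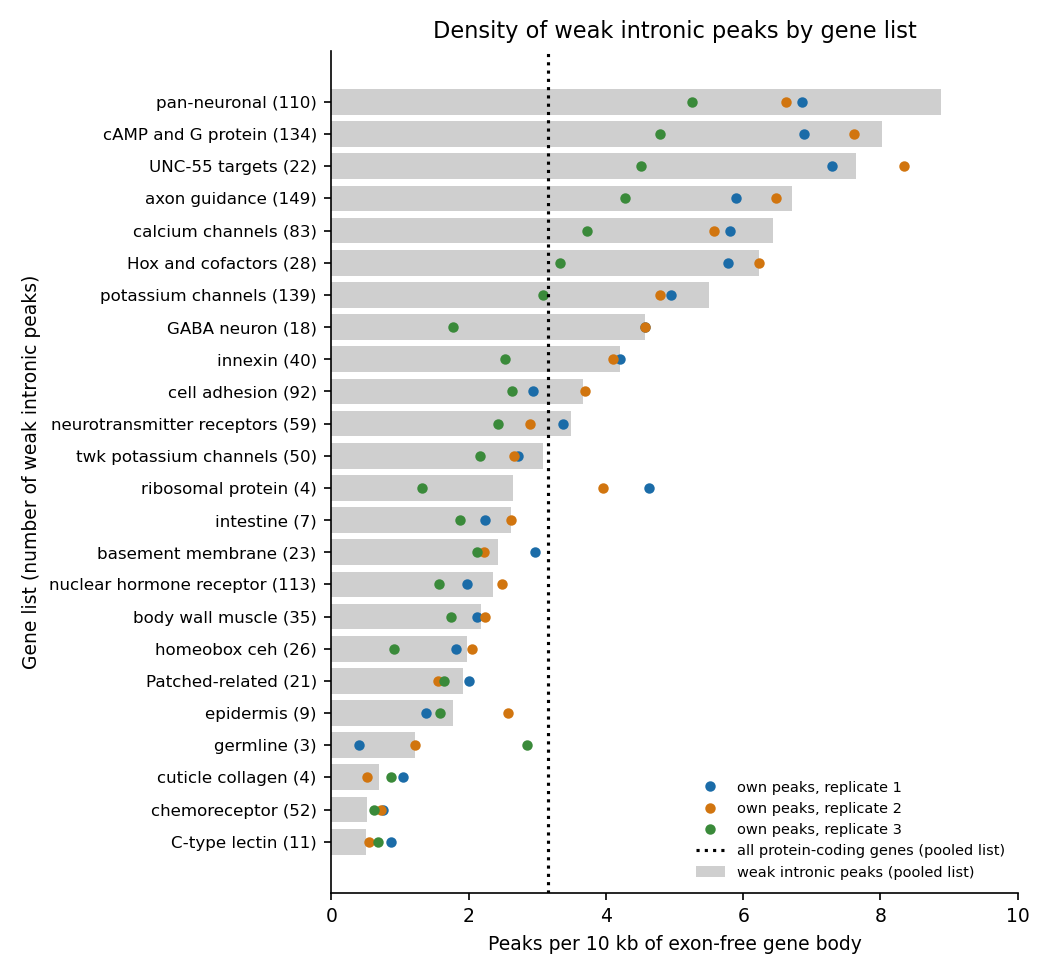
Weak intronic peaks per 10 kb of exon-free gene body for 24 gene lists: grey bars, pooled list; circles, each replicate's own weak intronic peaks; dotted line, all protein-coding genes in the pooled list (3.15). Pan-neuronal genes are highest at 8.88 and C-type lectin genes lowest at 0.501; the circles of replicate 3 are to be read against its own lower level over all genes (2.11).

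GABA neuron genes and the genes of the transgene were examined because of the promoter used. Of 16 GABA neuron genes 6 held a member (18 members, 4.56 per 10 kb), with 7 in the tyramine receptor gene ser-2, 6 in unc-25, which encodes glutamate decarboxylase, and 2 in oig-1. The own ratio to all genes was 1.61, 1.59 and 0.840 in replicates 1, 2 and 3 (1.35 ± 0.440, n = 3), so replicate 3 fell on the other side of 1. None of these 18 members recurred in all 3 replicates, beside 8.25% of all pairs of a gene and a member. On so few members, none at all lies near that share. No member lay in unc-55, ttr-39 or dpy-20, whose exon-free bodies add up to 5.12 kb.

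The 6 genes described as regulated by UNC-55 held 22 members, or 7.64 per 10 kb against 3.15 over all genes. Set against genes of like exon-free length, the list had 2.01 times the members. Of the 22 members, 18 lay in pde-4, which encodes a cAMP phosphodiesterase. This gene also holds 19.8 of the 28.8 kb of exon-free sequence of the list. Per 10 kb pde-4 had 9.11 members, where genes with 10 to 20 kb of exon-free body had 4.37. The values were 18.1 for oig-1, 8.80 for hbl-1 and 4.01 for irx-1, on 1 or 2 members each. In pde-4, own lists of the replicates gave 17, 19 and 11 weak intronic peaks. Of the 18 members, 4 were found in every replicate, 7 in 2, 5 in 1 and 2 in none. Over all members the shares were 8.32%, 27.7%, 46.5% and 17.5%. The signal of the 18 ran from 8.64 to 37.9 with a median of 20.3, above the median of all members. Whether this bears on their recurrence was not tested. Of the 18, 13 lay in the 2 longest exon-free stretches, of 5994 and 6633 bp, which hold 63.9% of the gene's exon-free bases. The strongest, chrII:7639632-7639967, had a signal of 37.9 and ranked 6513, 8942 and 4117 in replicates 1, 2 and 3. The window printed above is from this member. The other 3 that recurred throughout had signals of 25.5, 19.7 and 18.1, and ranked between 6761 and 27969 in the replicates. Also in the gene were 3 optimal peaks, with signals of 165, 59.6 and 48.3.

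**Figure D5:**
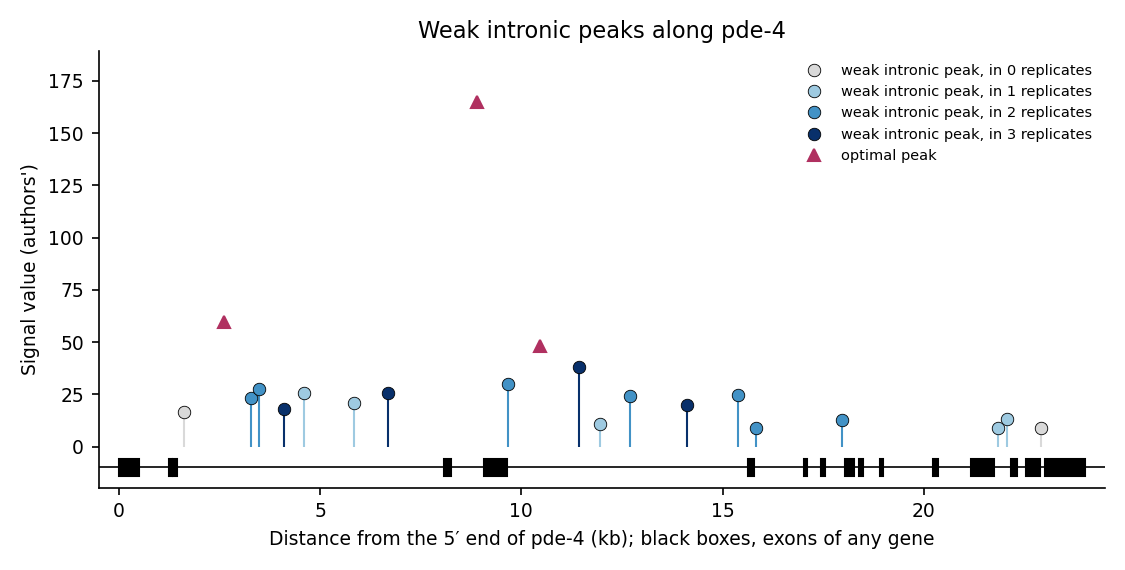
Weak intronic peaks along pde-4: distance of the summit from the 5′ end of the gene (kb) against the authors' signal value, shaded by the number of replicates in which the peak recurs, with optimal peaks as triangles and exons as black boxes. The 18 weak peaks lie between 8.64 and 37.9, all below the 3 optimal peaks, and 4 recur in all 3 replicates.

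The other genes of that list held few. The immunoglobulin-domain gene oig-1 held 2 members, at chrIII:6524284-6524619 and chrIII:6524852-6525187, with signals of 12.3 and 12.5. The first was found in replicates 2 and 3, at ranks 15641 and 5637, and the second in replicate 2 alone, at rank 27651. The transcription factor gene hbl-1 held 1 (signal 9.62), found in replicates 2 and 3 at ranks 16479 and 22552. The Iroquois homeobox gene irx-1 held 1 (signal 13.4), found in replicate 1 at rank 10502. None lay in flp-13, a neuropeptide gene, or unc-8, a subunit of a sodium channel. None of the 22 members of the list held AGGTCA within 50 bp of the summit, and 5, all in pde-4, held 1 or more of the hexamers. Over all members the shares were 1.80% for AGGTCA and 17.0% for the hexamers, and 22 members are few for a comparison.

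Of the 10 strongest members that recurred in every replicate, 5 lay on chromosome I. That chromosome held 21.02% of all members, and 10 members are few for a comparison. The afd-1 member, chrI:2204705-2205040, ranked 7132, 7618 and 11588 in replicates 1, 2 and 3. The members in wac-1.2 (signal 45.6), Y73E7A.3 (45.5) and C17E4.6 (45.5) ranked between 5343 and 11583. The member in ced-12, needed for the engulfment of dying cells, lay 194 bp from a transcript start and ranked 7358, 8313 and 17399. Replicate 3 gave the poorest of the 3 ranks to all of these except the wac-1.2 member, to which it gave the best.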

How the data were processed

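The series holds ChIP-seq peak lists of 3 replicates, whose numbers come from the labels, plus pooled and optimal lists, all used in build ce11. Each relaxed list was called against 1 shared control, per the deposited notes. Which peak caller and aligner were run is not given in the sources used here. Signal values per peak are the authors', as deposited, and their relation to depth is unknown. The −log10 q values are also as deposited by the authors. The ce10 lists were used to count rows alone (23299 pooled rows without optimal overlap).

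Summits were placed in genes with Ensembl release 115 (WBcel235), sequences came from the RefSeq assembly, and python 3.11.15, numpy 2.4.6, pandas 2.3.3, scipy 1.17.1 and matplotlib 3.10.9 were used. The overlap code was tested on simulated data. Values were compared over the 3 replicates. When the 3 differences share a sign, the sign-flip p is 0.25 whatever their spread, so it reflects shared direction alone. Summits were compared with windows 300 bp to each side, and hexamer ratios with flanks free of exons, after a first table without that limit had been seen.

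Named are every gene of the transgene and UNC-55 target lists, the 10 genes with most members, the 5 densest with 10 kb or more, up to 3 leading genes of each other list (1 is not reported here), the genes of the 10 strongest members found in all replicates, and those at the signal threshold. The members and the gene lists were chosen with earlier results of these data known. Alternatives concerned overlap, rank, window and flank, gene length, and leaving out each replicate.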

Additional observations from a re-analysis of the deposited data

How the results depend on the processing

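With 3 replicates no test could pass 0.05, so the alternatives bear on size and direction alone. The first-intron difference was 0.243 points more than 1000 bp from an optimal peak, 0.683 for members of the pooled list and 3.83 in the higher-signal part of each own list, and intronic minus intergenic recurrence was -1.78 points at like signal. The number of members fell to 5996 when the whole peak had to be free of exons and to 3550 when the pooled rank had to be 15000 or better. Mean recurrence was 25.7% when a replicate summit had to lie within 50 bp, and 61.8% for pooled ranks up to 15000. Leaving out 1 replicate gave a mean recurrence of 36.1% to 49.7%. The other ranges without 1 replicate, with 0.5 as the smallest p, were -5.32 to -4.52 points for intronic minus intergenic, -3.49 to -0.948 for intronic minus exonic, -0.368 to -0.191 for AGGTCA, -2.21 to -1.88 for GC content, 0.624 to 0.806 for the share on X and 1.76 to 2.20 for the first intron. GC content turned to 0.498 points with exon-free flanks, and the share on X to -0.885 points for the members of the pooled list. Both were chosen after seeing the data, and their cause was not tested. Of 72 alternatives over 24 gene lists, 37 stayed within the replicate spread, 28 moved and 7 crossed the density of all genes. With members in all 3 replicates alone, the ratio to all genes was 0 for GABA neuron genes (0 of 18 members). It was 1.22 for basement membrane (3 of 23) and 0.910 for neurotransmitter receptors (4 of 59). Intestine had a ratio of 1.44 (1 of 7) and twk channels 1.90 (8 of 50). Against genes of like length the ratio was 0.914 for cell adhesion and 1.66 for ribosomal protein genes.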
